A study of Monodelphis domestica with 8 samples.

Results

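The regions described here are the H3K27me3 peaks that lie in long runs on the autosomes of opossum fetal brain. H3K27me3 peaks on chromosomes 1 to 8 that were less than 5 kb apart were joined, and a joined domain was called long when the distance from its first start to its last end exceeded 20 kb. This rule gave 196 domains with 1072 member peaks, out of 7485 autosomal peaks and 17394 in the whole H3K27me3 list. The members were therefore chosen by the H3K27me3 peaks themselves, so lengths, fills, widths and scores of that list are given as a description. The H3K4me3, H3K9Ac and H3K9me3 lists played no part in the choice. Brain was taken at embryonic day 13 from female fetuses of the gray short-tailed opossum, Monodelphis domestica, and assayed by chromatin immunoprecipitation and sequencing after micrococcal nuclease digestion. For each of the 4 marks there were 2 libraries, the first from daughters of an LL2 mother and an LL2 father and the second from daughters of an LL1 mother and an LL2 father. Each library pooled tissue of 2 sisters, and the chromatin of a pool was shared out among the antibodies. Whole brain mixes many cell types, so marks that share sequence in these lists need not lie on the same chromosome copy or in the same cells. A single deposited peak list serves both libraries of a mark, so no value below has a replicate error, no test was made, and intervals cover the counting of peaks or domains only. Neighbouring peaks are not independent. The sequencing depth behind the lists is unknown. Positions are those of the lists, counted from 1. Neither the labels nor the lists name the genome build, so domains are given by position and without genes.

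H3K27me3 is the trimethyl mark placed on histone H3 by Polycomb repressive complex 2, and it is known for keeping developmental genes silent. Polycomb complexes can read the mark as well as write it, and it can spread from the sites where it is first placed. In mammals it forms wide domains over some clusters of developmental genes. H3K4me3 marks promoters, and a promoter that carries both H3K4me3 and H3K27me3 is called bivalent, a state known from embryonic and neural progenitor cells. H3K9Ac accompanies active promoters, and H3K9me3 is the mark of constitutive heterochromatin and of many silenced repeats.

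The member peaks were few but wide. They made up 14.3% of the autosomal H3K27me3 peaks and 33.2% of the autosomal bases under that mark (6.18 Mb of 18.6 Mb). Their median width was 3089 bp (quartiles 1462 and 7337 bp, range 610 to 72347 bp), against 1390 bp (948 and 2287 bp) for the 6413 autosomal peaks outside long domains. Of the members, 180 were wider than 10 kb, and 48 peaks outside were. The authors' peak score, used here only within a list, had a median of 418 among members and 108 outside. Scores below 100 were held by 20.4% of members and by 47.1% of the peaks outside. A score of exactly 3100 recurs in the list, and 109 of the 125 autosomal peaks that hold it were members. The lists do not say whether 3100 is a ceiling, so scores at or above it are not read as an order of strength. A domain usually joined 1 strong, wide peak and several weaker ones. The highest-scoring member of a domain had a median width of 12387.5 bp and a median score of 2833, whereas the other 876 members had medians of 2325 bp and 258. In 68 domains 1 peak spanned more than 50% of the length. The widest member, chr1:332642675-332715021, measured 72.3 kb and touched no H3K4me3 peak, and the next, chr1:333204920-333254565, measured 49.6 kb and touched 6. These widest peaks were picked after their values were seen. By value alone, the highest score in any member was 3219.64, at chr5:95949355-95960092, a peak of 10.7 kb with 1 H3K4me3 peak. It was followed by chr1:301548149-301561287 (score 3163), chr1:4815076-4830973 (3134) and chr7:79614317-79626075 (3122), which were 11.8 to 15.9 kb wide and touched 2, 1 and 1 H3K4me3 peaks.

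Most long domains were only a little above the length limit, and they were densely filled. The median length was 29.2 kb (quartiles 23.5 and 35.1 kb). Of the 196 domains, 108 were up to 30 kb long, 55 were 30 to 40 kb, 10 were 40 to 50 kb, 17 were 50 to 100 kb and 6 were longer than 100 kb. Together they spanned 6.97 Mb, which is 0.204% of the 3418 Mb between the first and last peaks of chromosomes 1 to 8. A domain held a median of 5 members (quartiles 3 and 7), and 4 domains consisted of a single peak. The fill, which is the share of a domain's length under its own members, had a median of 91.1% (quartiles 82.5% and 96.4%) and exceeded 95% in 59 domains. Length and fill were nearly unrelated across the 196 domains (Spearman rho 0.06), while longer domains tended to hold more members (rho 0.44). Both correlations describe domains of 1 list. The gaps between neighbouring members had a median of 447.5 bp. Of 876 gaps, 619 (70.7%) were shorter than 1 kb and 28 were at most 10 bp, so that many members were pieces of an almost continuous block.

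**Figure D1:**
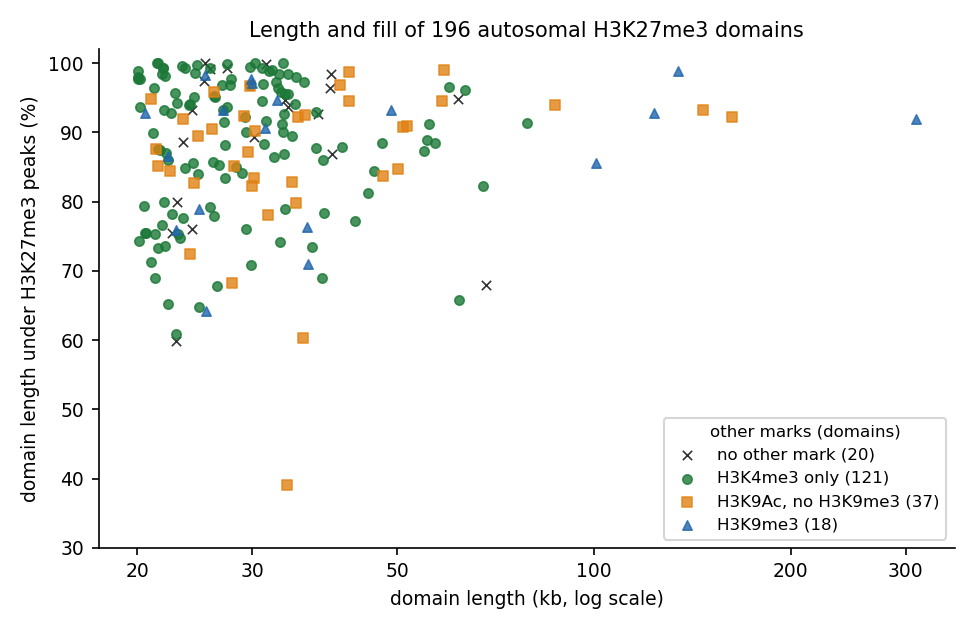
Each point is 1 of the 196 long autosomal H3K27me3 domains, with its length on a log axis (kb) and the percentage of that length under its own H3K27me3 peaks, and the symbol gives the other marks it touches. Most domains lie between 20 and 40 kb, and the 6 domains longer than 100 kb are filled to at least 85.5%.

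At the extremes of fill, the 4 domains made of 1 peak are filled completely by construction. They are chr2:131387285-131420674 (33.4 kb), chr5:56608147-56638432 (30.3 kb), chr3:186016723-186042103 (25.4 kb) and chr1:78635520-78657071 (21.6 kb), each with a score of 3100. They touched 1, 3, 0 and 1 H3K4me3 peaks, in the same order, and no H3K9Ac or H3K9me3 peak. The least filled domain was chr1:122560552-122594505, where 11 narrow members covered 39.1% of 34.0 kb and the highest score was 197. It touched 3 H3K9Ac peaks and 1 H3K4me3 peak. Only 1 other domain, chr1:740922561-740945472 (22.9 kb, 7 members, fill 59.8%), was below 60%, and it touched no other mark. The next by low fill were chr3:451044205-451080052 (35.8 kb, 60.3%), chr2:506922351-506945313 (23.0 kb, 60.8%) and chr3:452705773-452731259 (25.5 kb, 64.2%). Each touched 2 H3K4me3 peaks, the first also 1 H3K9Ac peak and the last also 1 H3K9me3 peak.

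The 10 longest domains differed in what else they carried. The longest, chr1:332954375-333265345, measured 311 kb, and its 35 members filled 91.9% of it. It touched 11 H3K4me3 peaks, no H3K9Ac peak and 32 H3K9me3 peaks, and H3K4me3 covered only 5.10% of it. A second domain lay 239 kb away, at chr1:332591442-332715021 (124 kb, 10 members, fill 92.8%), and touched 1 H3K4me3 peak, no H3K9Ac peak and 11 H3K9me3 peaks. These domains were 1st and 5th by length.

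The domains ranked 2nd to 4th by length carried many H3K4me3 peaks, unevenly placed along the domain. At chr8:297273075-297435740 (163 kb, 17 members, fill 92.3%) there were 11 H3K4me3 peaks, 1 of them near 41 kb from the start and the other 10 between 99.6 and 155 kb. Its 6 H3K9Ac peaks lay between 127 and 150 kb. At chr2:201099206-201246008 (147 kb, 12 members, fill 93.3%) there were 16 H3K4me3 peaks, the most in any long domain, all between 13.9 and 93.4 kb from the start, and the last 53.4 kb had none. This domain had 1 H3K9Ac peak. At chr4:187408699-187543137 (134 kb, 8 members, fill 98.9%) there were 15 H3K4me3 peaks, 3 H3K9Ac peaks and 2 H3K9me3 peaks, and the longest stretch without H3K4me3 measured 38.4 kb. H3K4me3 covered 23.9%, 38.2% and 27.4% of these 3 domains, in the same order. Starts follow the coordinates, and no gene direction is known for them.

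The 6th domain, chr3:203922140-204022727 (101 kb, 8 members, fill 85.5%), was almost wholly covered by H3K4me3. Its 8 H3K4me3 peaks covered 96.3% of it, the widest measured 27305 bp, and the longest stretch without one was 1.94 kb. It had no H3K9Ac peak and 1 H3K9me3 peak. Its neighbour 21.4 kb upstream in the coordinates, chr3:203875871-203900754 (24.9 kb), carried H3K4me3 over 76.6% of its length, again with no H3K9Ac peak and with 1 H3K9me3 peak. The remaining 4 of the 10 longest were chr7:211725120-211812358 (87.2 kb, 9 H3K4me3 and 3 H3K9Ac peaks), chr4:298441310-298520375 (79.1 kb, 2 H3K4me3 peaks), chr2:8111134-8179522 (68.4 kb, no other mark) and chr1:418258187-418325763 (67.6 kb, 4 H3K4me3 peaks). The chr2 domain joined 17 members of up to 7.76 kb, with a fill of 68.0%, the lowest of these 10.

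**Figure D2:**
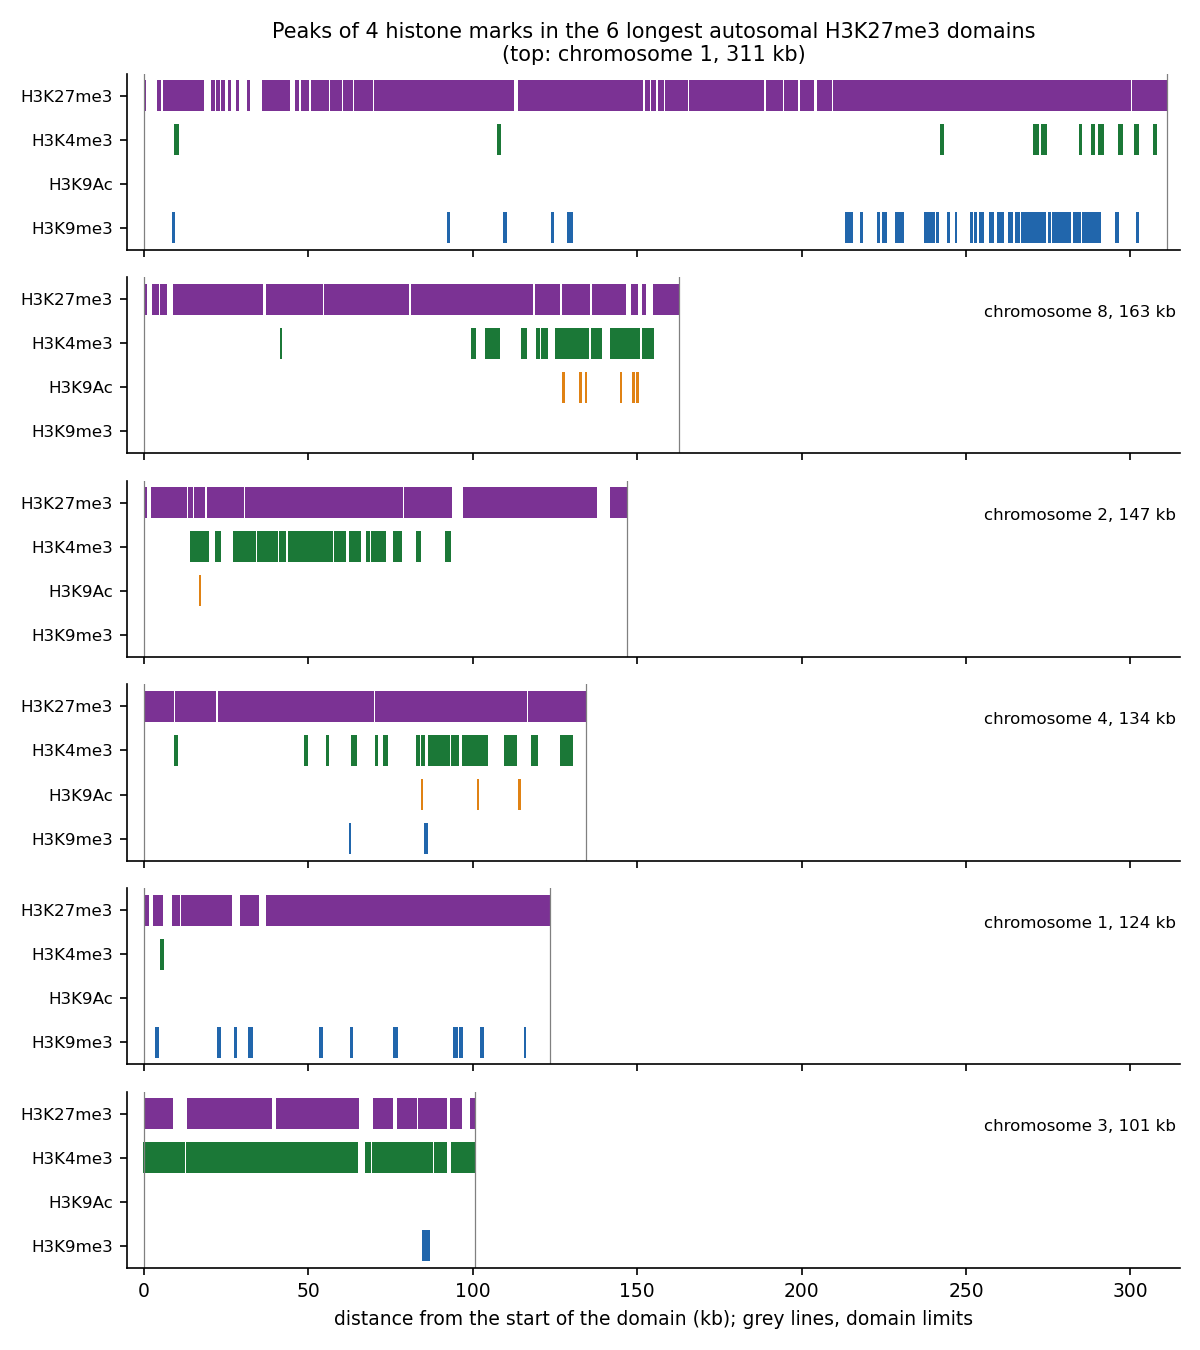
Peaks of the 4 marks are drawn to scale along the 6 longest autosomal H3K27me3 domains, with the distance from the start of the domain in kb and grey lines at its limits. The chromosome 1 domains carry 32 and 11 H3K9me3 peaks, the chromosome 8, 2 and 4 domains carry 11, 16 and 15 H3K4me3 peaks, and on chromosome 3 H3K4me3 covers 96.3% of the domain.

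Every autosome held long domains. They numbered 56 on chromosome 1, 38 on chromosome 2, 30 on 3, 16 on 4, 17 on 5, 13 on 6, 9 on 7 and 17 on 8. Per 100 Mb of span this was highest on chromosomes 1 and 2 (7.49 and 7.02) and lowest on chromosomes 7 and 4 (3.45 and 3.68), with 5.73 over all 8. Members made up between 7.93% (chromosome 4) and 16.9% (chromosome 1) of the H3K27me3 peaks of a chromosome. Chromosome 7 had the fewest domains and the longest median length, at 38.6 kb with a median of 9 members, and chromosome 4 had the shortest, at 22.2 kb. The median fill ran from 85.3% on chromosome 3 to 93.8% on chromosome 4. The longest domains of chromosomes 5 and 6 were chr5:95899381-95962885 (63.5 kb, 10 members, 1 H3K4me3 peak) and chr6:36280999-36341078 (60.1 kb, 3 members, 4 H3K4me3 peaks).

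Most long domains lay far from the next one, and a minority was grouped. Of the 196, 24 had another within 100 kb, 56 within 500 kb and 66 within 1 Mb, while the median distance to the nearest was 3228 kb. Within 500 kb they formed 25 groups, of which none exceeded 3 domains. One group of 3, chr1:122560552-122726327 (166 kb), included the least filled domain and carried 11 H3K9Ac and 8 H3K4me3 peaks in all. Another, chr3:492479779-492843841 (364 kb, 22 members), held 4 H3K4me3 peaks, all in its first domain (47.5 kb), and its last domain touched no other mark. The chromosome 8 domain of 163 kb had a neighbour of 39.7 kb, chr8:297210822-297250483, that touched no other mark. Within 10 Mb of the ends of the chromosomes lay 14 long domains (7.14%), beside 9.24% of all 4493 joined autosomal domains.

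H3K4me3 overlapped a smaller share of the members than of other autosomal H3K27me3 peaks. Of the 1072 members, 456 (42.5%, exact Clopper-Pearson 95% interval 39.6% to 45.6%) shared at least 1 bp with an H3K4me3 peak, beside 52.6% of all autosomal H3K27me3 peaks. Outside long domains the share was 54.2% (53.0% to 55.5%). The member share was the lower of the pair on 7 of 8 chromosomes. It ranged from 34.4% on chromosome 1 to 61.3% on chromosome 4, where the share outside was 54.4%. Lone H3K27me3 peaks, with no other within 5 kb, overlapped H3K4me3 in 58.1% of 2869 cases, and peaks in pairs in 58.9% of 1992. Peaks in shorter domains of 3 or more peaks did so in 41.0% of 1552 cases (38.6% to 43.5%), close to the members, so a low share was not limited to domains over 20 kb.

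**Figure D3:**
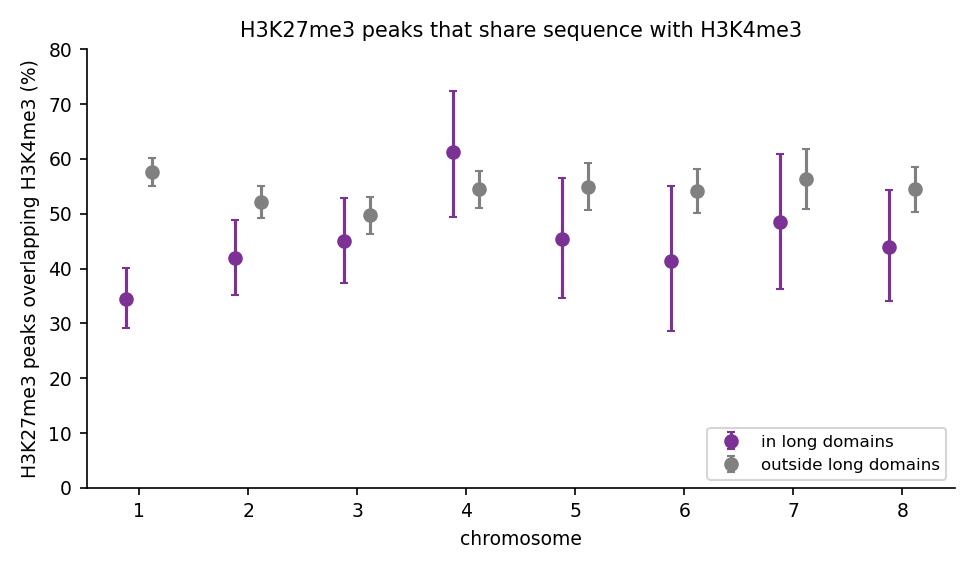
The percentage of H3K27me3 peaks that overlap an H3K4me3 peak by at least 1 bp is shown for each autosome, for members of long domains and for the other peaks, with exact 95% intervals from counting. Members lie below the other peaks on 7 of 8 chromosomes, with chromosome 4 (61.3% and 54.4%) as the exception, and the 2 intervals overlap on all but chromosomes 1 and 2.

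Members were wider than other peaks, yet their share was the lower one within each class of width. Among peaks of 1 to 2 kb, 22.2% of 257 members and 54.0% of 2586 other peaks overlapped H3K4me3. Among those of 2 to 5 kb the shares were 42.5% and 68.9%, and among those of 5 to 10 kb they were 56.3% and 76.7%. Above 10 kb they were 76.1% of 180 members and 79.2% of 48 other peaks, with intervals of 69.2% to 82.1% and 65.0% to 89.5%. Peaks of shorter runs lay between up to 10 kb, at 36.1% for 1 to 2 kb and 56.2% for 2 to 5 kb, and above 10 kb 6 of 9 of them overlapped H3K4me3 (66.7%). Members with H3K4me3 were the wider and higher-scoring ones, and a wider peak has more room to meet H3K4me3. They had a median width of 6005 bp and a median score of 1022 and made up 62.1% of member bases, while the 616 members without H3K4me3 had medians of 2031.5 bp and 199.7. The highest-scoring member touched H3K4me3 in 143 domains (73.0%), and in 29 domains every member did.

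Counted by domain, H3K4me3 was present almost everywhere. Of the 196 long domains, 175 (89.3%, exact interval 84.1% to 93.2%) touched at least 1 of 571 H3K4me3 peaks, beside 65.0% of the 4493 joined autosomal H3K27me3 domains of any length. Of the 432 shorter autosomal domains of 3 or more peaks, 76.2% touched an H3K4me3 peak. A longer region has more room to meet a peak, so densities are given as well. The number per long domain had a median of 2, with 45 domains at 1, 33 at 2, 34 at 3 and 28 at 4. Per Mb there were 81.0 H3K4me3 peaks inside long domains, 9.68 in flanks of the same length on both sides and 6.46 over chromosomes 1 to 8. Shorter domains of 3 or more peaks had 107.9 per Mb. H3K4me3 covered 19.9% of the length inside, 2.17% of the flanks and 1.53% of the autosomes. Flanks and whole autosomes are mostly without H3K27me3, so they are not places of like kind. Under H3K27me3 peaks themselves, H3K4me3 covered 20.7% of member bases and 34.7% of the bases of autosomal peaks outside long domains. The 6 domains longer than 100 kb held 63.3 H3K4me3 peaks per Mb, those of 50 to 100 kb 51.7 and those of 20 to 30 kb 100.3.

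H3K4me3 peaks were spread along the whole length of the domains. With each domain cut into 5 equal parts from start to end, they numbered 101, 121, 116, 107 and 120, and the outer 2 parts held 39.1% (exact interval 35.1% to 43.3%) of the 565 peaks whose midpoint lay inside. Cover by H3K4me3 was 3.0% in the last 2 kb outside a domain edge, 11.6% in the first 2 kb inside and 19.9% in the next 2 kb. From there to 18 kb inside it varied between 18.5% and 22.6%. Outside, it stayed between 1.67% and 3.76% out to 40 kb. Within domains, H3K4me3 covered 20.7% of the bases under members and 14.0% of the gaps between them. Only 9 of the 571 peaks touched no member.

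**Figure D4:**
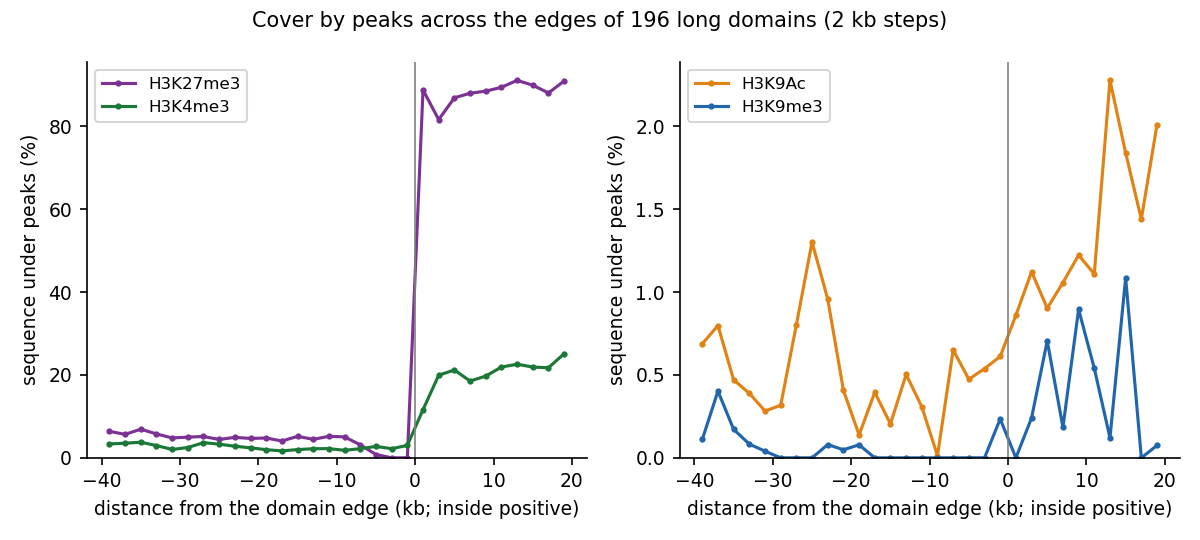
Cover by peaks, as a percentage of sequence in 2 kb steps, is plotted against the distance from the edge of the 196 long domains (kb, inside positive, both edges of a domain pooled), with fewer domains deep inside because steps stop at the middle of a domain. H3K4me3 steps up from 3.0% just outside to 19.9% at 2 to 4 kb inside, H3K9Ac stays at or below 2.28% throughout, and the absence of H3K27me3 just outside the edge follows from the joining rule.

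The H3K4me3 peaks in long domains were mostly weak. Their median score was 140 (quartiles 77.3 and 310), and 209 of 571 (36.6%) scored below 100. H3K4me3 peaks on H3K27me3 outside long domains had a median of 264, with 18.9% of 3085 below 100, and those free of H3K27me3 a median of 386, with 20.9% of 18430 below 100. The median in long domains was below that of H3K4me3 peaks on other H3K27me3 on 8 of 8 chromosomes, ranging from 106 on chromosome 1 to 173 on chromosome 7. The median widths were 1666, 1939 and 2061 bp in the same order of places. A minority was strong and broad. There were 48 H3K4me3 peaks with a score of 800 or more, in 38 domains, and their median width was 7863.5 bp, against 4420.5 bp on other H3K27me3 and 3542 bp away from H3K27me3 in the same class of score. Of the 49 autosomal H3K4me3 peaks wider than 10 kb, 13 lay in long domains, 10 on H3K27me3 outside them and 26 away from H3K27me3. Of all 22086 autosomal H3K4me3 peaks, 571 lay in long domains.

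H3K4me3 covered more than 50% of 16 long domains. Beside the chromosome 3 pair described above, these included chr3:215679092-215721215 (42.1 kb, H3K4me3 over 74.7% of it, 3 H3K9Ac peaks), chr4:388121118-388142503 (21.4 kb, 73.4%, 1 H3K9Ac peak), chr7:69162029-69193758 (31.7 kb, 73.1%, 6 H3K9Ac peaks) and chr2:52094356-52130796 (36.4 kb, 72.3%, 4 H3K9Ac and 2 H3K9me3 peaks). The class limit and these examples were chosen after the values were seen. At the other end, 52 domains had H3K4me3 over at most 10% of their length, and 21 had no H3K4me3 peak. The median of the highest H3K27me3 score per domain was 2110 where H3K4me3 covered over 50%, 2631 for 25% to 50%, 3051 for 10% to 25%, and 3100 below that and where H3K4me3 was absent. High cover was not particular to long domains. Their H3K4me3 cover had a median of 16.0% and an upper quartile of 27.8%. In shorter autosomal domains of 3 or more peaks these were 20.6% and 44.6%, and cover reached 100%.

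H3K9Ac was found in a minority of long domains, and its peaks there had low scores, as they had on other H3K27me3. Of 1072 members, 63 (5.88%, exact interval 4.55% to 7.46%) overlapped H3K9Ac, beside 7.13% of all autosomal H3K27me3 peaks. Outside long domains the share was 7.34% (6.72% to 8.01%), so the intervals overlap. Of the 196 domains, 42 (21.4%, 15.9% to 27.8%) touched an H3K9Ac peak, beside 11.0% of joined domains of any length. Most joined domains are shorter and have less room to meet a peak. The 42 domains held 89 H3K9Ac peaks, with 20 domains at 1 peak and 2 at 6, which were chr8:297273075-297435740 and chr7:69162029-69193758. Next came chr1:122624228-122683096 (58.9 kb), chr7:97586311-97644871 (58.6 kb), chr2:52094356-52130796 and chr1:122696315-122726327, with 4 each. H3K9Ac peaks covered 1.22% of the long domains, 0.423% of their flanks and 0.402% of the autosomes. Shorter domains of 3 or more peaks had more, with 2.11% of their length covered. Per Mb they held 22.5 H3K9Ac peaks, beside 12.6 in long domains. The highest H3K9Ac score in a long domain was 256.6, on a list that reaches 1185, and the median was 64.9 against 84.8 outside long domains. On H3K27me3 outside long domains, 472 H3K9Ac peaks had nearly the same median (65.4) and highest score (267.1). Of the 89 peaks, 80 (89.9%) lay on H3K4me3, beside 90.0% of all autosomal H3K9Ac peaks.

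H3K9Ac was found more often where H3K4me3 covered more of the domain. H3K9Ac was present in 12 of the 16 domains covered by H3K4me3 over more than 50% of their length, in 16 of 44 with 25% to 50%, in 12 of 63 with 10% to 25%, in 2 of 52 with up to 10% and in 0 of 21 without H3K4me3. By chromosome, 4 of 9 long domains on chromosome 7 and 0 of 13 on chromosome 6 touched H3K9Ac, and a count of 0, with the limit set at 3 counts of the total, allows a share of up to 23.1%.

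Counted the other way, few H3K4me3 peaks in long domains were acetylated. Of the 571, 59 (10.3%, exact interval 7.96% to 13.1%) overlapped H3K9Ac, beside 42.4% of all autosomal H3K4me3 peaks. The share was 19.0% (17.6% to 20.4%) for H3K4me3 on H3K27me3 outside long domains and 47.3% (46.6% to 48.0%) for H3K4me3 free of H3K27me3. It was lower in long domains than on other H3K27me3 on 8 of 8 chromosomes, with the closest pair on chromosome 7 (9 of 36 and 43 of 166 peaks). The score of the H3K4me3 peak moved with this share. For scores of 50 to 100 the shares were 3.35% in long domains and 3.08% on other H3K27me3, for 100 to 200 they were 4.64% and 6.53%, for 200 to 400 they were 9.62% and 12.4%, and for 800 and more they were 54.2% and 57.1%. Intervals overlapped in these 4 classes. For 400 to 800 the shares were 15.3% of 59 peaks (7.22% to 26.99%) and 29.6% of 665 (26.2% to 33.3%), and these intervals overlapped only slightly. H3K4me3 free of H3K27me3 was more often acetylated in every class, from 9.87% for the lowest to 84.8% for the highest.

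**Figure D5:**
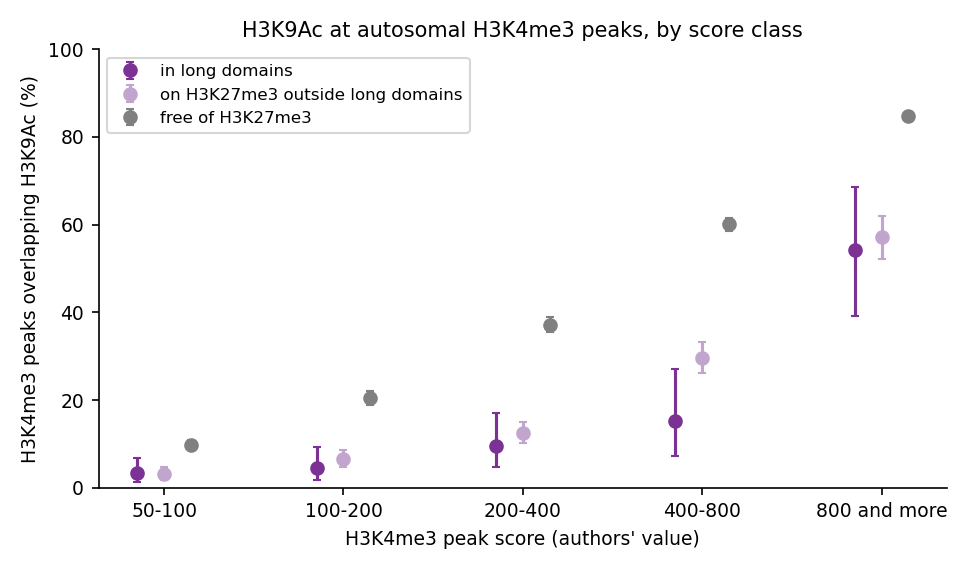
The percentage of autosomal H3K4me3 peaks that overlap H3K9Ac is plotted by class of the authors' H3K4me3 score, for peaks in long H3K27me3 domains, peaks on other H3K27me3 and peaks free of H3K27me3, with exact 95% intervals from counting. Shares rise with score in all 3 places, and the long-domain points (3.35% to 54.2%) lie below those free of H3K27me3 (9.87% to 84.8%) in each class.

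H3K9me3 was concentrated in 2 neighbouring long domains of chromosome 1. Of 1072 members, 29 (2.71%, exact interval 1.82% to 3.86%) overlapped H3K9me3, beside 1.26% of all autosomal H3K27me3 peaks. H3K9me3 touched 18 of 196 domains (9.18%, 5.53% to 14.1%), beside 1.83% of joined domains of any length, which are mostly shorter and have less room to meet a peak. Of the 62 H3K9me3 peaks in long domains, 43 (69.4%) lay in the domains of 311 kb and 124 kb described above, which make up 6.23% of the long-domain length. There were 8.89 H3K9me3 peaks per Mb in all long domains, 2.91 without these 2 domains, 3.33 without chromosome 1, 0.229 in the flanks and 0.205 over chromosomes 1 to 8. In the 311 kb domain H3K9me3 covered 17.8% of the length. Of its 32 peaks, 27 had their midpoint in the last 100 kb, the median spacing was 3.13 kb, and the highest score was 322.7. In the 124 kb domain the 11 peaks lay from 3.87 to 116 kb from the start with a median spacing of 11.2 kb, covered 10.7% and reached a score of 108.6.

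Without the chromosome 1 pair, 1.85% of members and 8.25% of domains had H3K9me3. That member share was close to the 1.67% (1.24% to 2.21%) of lone H3K27me3 peaks. It was 0.653% for H3K27me3 peaks in pairs, 0.258% in shorter domains of 3 or more peaks and 1.01% for all autosomal peaks outside long domains. In the remaining long domains H3K9me3 peaks came singly or in pairs. The other 16 domains held 19 of them, 13 domains with 1 and 3 with 2. Of these 19 peaks, 13 (68.4%) also lay on H3K4me3, whereas 9 of the 43 in the chromosome 1 pair did (20.9%), and 15.5% of all autosomal H3K9me3 peaks. Their median score was 61.1, against 87.4 in the chromosome 1 pair and 57.5 outside long domains. Over all members, the chromosome 1 pair included, 0 of the 121 up to 1 kb wide overlapped H3K9me3. By the same limit of 3 counts this allows up to 2.48%, and outside long domains 17 of 1839 such peaks overlapped it (0.924%). For 1 to 2 kb the shares were 0.389% of members and 1.12% of other peaks. For 2 to 5 kb they were 0.997% and 0.838%, and for 5 to 10 kb 4.23% and 1.48%. Of the 180 members wider than 10 kb, 16 overlapped H3K9me3 (8.89%, 5.17% to 14.0%). Of the 48 peaks wider than 10 kb outside long domains, 1 did (2.08%, 0.0527% to 11.1%).

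By the combination of marks, H3K27me3 with H3K4me3 alone was the most frequent state. It described 121 domains (61.7%), with a median length of 27.2 kb, and nearly the same share, 60.2%, of the 432 shorter autosomal domains of 3 or more peaks. A further 37 (18.9%) had H3K4me3 and H3K9Ac (median 31.7 kb), 12 (6.12%) had H3K4me3 and H3K9me3 and 5 (2.55%) had all 4 marks. No other mark was found in 20 (10.2%), and 1, chr3:492760988-492797300 (36.3 kb), had H3K9me3 only. Of the 432 shorter domains, 15.05% had H3K4me3 and H3K9Ac, 0.694% H3K4me3 and H3K9me3, 0.231% all 4 marks and 23.6% no other mark. Shorter domains have less room to meet a peak. No long domain carried H3K9Ac without H3K4me3, and only 1 of the 432 shorter ones did (0.231%). This goes with the 90.0% of all autosomal H3K9Ac peaks that lie on H3K4me3 and is not particular to long domains. The 5 long domains with all marks were chr4:187408699-187543137, chr8:300271101-300320032 (48.9 kb), chr2:52094356-52130796, chr1:122696315-122726327 (30.01 kb) and chr1:653504117-653531142 (27.03 kb). The 20 without other marks were as well filled as the rest, with a median fill of 93.5% and a median length of 28.8 kb. The longest of them were chr2:8111134-8179522, chr1:705144286-705206284 (62.0 kb, fill 94.9%), chr8:297210822-297250483, chr3:492804199-492843841 (39.6 kb, fill 98.4%) and chr1:598796677-598836071 (39.4 kb, fill 96.4%).

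Long domains of the X chromosome, made by the same rule, were of like length but differently built. The 261 X-linked domains had a median length of 30.8 kb, with a median of 10 peaks and a median fill of 58.9%, against 5 peaks and 91.1% on the autosomes. Their 3253 peaks had a median width of 1453 bp and a median score of 110.6. H3K4me3 was present in 93 of them (35.6%, exact interval 29.8% to 41.8%), H3K9Ac in 18 (6.90%, 4.14% to 10.7%) and H3K9me3 in 20 (7.66%, 4.74% to 11.6%). No other mark was present in 157 (60.2%), against 10.2% of the autosomal ones. The H3K4me3 density was 14.3 per Mb in X-linked and 81.0 per Mb in autosomal long domains.

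The length limit falls within a continuous range. The 5 domains just above it, of 20.02 to 20.16 kb, had 2 to 6 members, fills of 74.4% to 98.8% and 1 to 3 H3K4me3 peaks. The 5 just below it, of 19.7 to 19.9 kb, had 3 to 7 peaks, fills of 39.4% to 98.1% and 0 to 3 H3K4me3 peaks, and 1 of them touched H3K9Ac.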

How the data were processed

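Each mark came as 1 deposited list with chromosome, start, end, name and score of its peaks. Per the submitters' processing notes, CASAVA 1.7, Bowtie 1.1.2 and MACS 1.0.1 were used. The sources used here do not state their settings, the genome build, any control, the peak threshold or how 2 libraries became 1 list. The score in the deposited lists is the authors' value, of a kind that the lists do not define. A peak threshold and the splitting of broad signal into several peaks affect joined lengths, member counts and shares, which is why joining distance and length were varied.

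Peaks were joined per chromosome (gap under 5 kb). Overlap needed at least 1 bp, densities used midpoints, and intervals are exact Clopper-Pearson 95% intervals. Flanks had the length of their domain on each side, without other long domains. X was used only for comparison, and unplaced sequence only for the domains flagged for a closer look. Of the H3K9Ac and H3K9me3 lists, 1 peak each starts below position 0. Domains were named by length, fill, other marks and nearness to the length limit. The members, lists and measures were chosen with earlier results of these data known. Tested on simulated data, the scripts gave back every planted domain, member and overlap in all 10 sets. The planted domains were all alike and the planted overlaps lay at the middle of members. Lengths near 20 kb, peaks in gaps and peaks across a domain edge were not tried. Computation used Python 3.11.15, numpy 2.4.6, pandas 2.3.3, scipy 1.17.1 and matplotlib 3.10.9.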

Additional observations from a re-analysis of the deposited data

Results flagged for a closer look

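Unplaced sequence, which no comparison used, also held H3K27me3 domains longer than 20 kb. They are listed because they lie in data outside the comparisons, and no number of them was predicted. There were 42, with 476 peaks and a median fill of 55.1%. H3K4me3 was present in 22 of them, H3K9Ac in 7 and H3K9me3 in 6.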

How the results depend on the processing

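Of 165 alternative values of 12 results, 142 stayed within 1.5 times the main count or density or within the exact interval of the share. The other 23 moved past these limits. Of the 165, 96 left out 1 chromosome, and only 2 of these moved. Each of the 96 kept at least 140 of the 196 domains, so most were likely to stay within the limits from the outset. No chromosome held enough domains or members for its removal to move those 2 counts by a factor of 1.5. Most of the moved values therefore came from the other settings. With only peaks less than 2 kb apart joined there were 708 members. Domains longer than 10 kb numbered 454, with 1966 members, of which 1.73% overlapped H3K9me3, and 5.07% of these domains held it. Domains longer than 50 kb numbered 23, with 232 members. For them the member shares were 33.6% with H3K4me3 and 5.60% with H3K9me3, 39.1% of domains held H3K9Ac and 17.4% H3K9me3, and 13.8% of their H3K4me3 peaks carried H3K9Ac. With an overlap of at least 50% of the narrower peak, 37.5% of members overlapped H3K4me3 (44.0% outside). With the top-scoring 50% of H3K4me3 peaks, 17.0% of members did (26.0% outside), 42.9% of domains held one, and 27.7% of those peaks carried H3K9Ac (35.1% on H3K27me3 outside). With the top-scoring 50% of H3K9Ac peaks, 1.96% of members, 9.18% of domains and 4.03% of H3K4me3 peaks in them had H3K9Ac (6.52% on H3K27me3 outside). Without chromosome 1, 45.7% of members overlapped H3K4me3 and the H3K9me3 density was 3.33 per Mb. That density was 4.50 per Mb without the domain richest in H3K9me3 and 2.91 without the 2 richest. Leaving out each other chromosome moved none of the 12 results past these limits. Settings for H3K9Ac at H3K4me3 peaks, classes of width and score, and the removal of the 2 richest domains were chosen after seeing the data. No paired analysis was possible because both libraries of a mark share 1 list, and no library could be left out for the same reason.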
